A study of Mus musculus with 6 samples.

Results

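The genes described here are the nuclear genes for the structural subunits of mitochondrial respiratory chain complexes I to IV. They were chosen by symbol: Ndufa, Ndufb, Ndufc, Ndufs and Ndufv, Sdha to Sdhd, Uqcr, and Cox4 to Cox8, without assembly factors, pseudogenes or Ndufa4l2. RefSeq's gene list held 70 genes that met this rule, and 67 of them had at least 1 array probe whose accession matched. Of these, 64 had a probe that was measured above background and entered the test, among 12470 named genes tested in all. The 64 comprised 36 genes of complex I, 4 of complex II, 8 of complex III and 16 of complex IV, with Ndufa4 counted in complex IV because its protein is now assigned there. Cox7b2, Cox8b and Cox8c had probes that were above background on none of the 6 arrays. Ndufb1, Ndufb4b and Ndufb4c had no matched probe and were not analysed here. All 64 tested genes were above background on all 6 arrays, so none entered through the signal of a single group.

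The respiratory chain sits in the inner mitochondrial membrane and passes electrons from NADH and succinate to oxygen. Complex I (NADH dehydrogenase) and complex II (succinate dehydrogenase) feed electrons to ubiquinone, complex III (cytochrome bc1) hands them to cytochrome c, and complex IV (cytochrome c oxidase) reduces oxygen. Complexes I, III and IV pump protons that drive ATP synthase, and their nuclear-encoded subunits are joined by subunits encoded in mitochondrial DNA. Several complex IV subunits have a widely expressed form and a second form known from heart, skeletal muscle, lung or testis.

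The samples were RNA from cultured lung fibroblasts of Mmp19 knockout mice and wild-type mice, 3 arrays per genotype; Mmp19 encodes a secreted protease of the extracellular matrix. Every mouse, wild type included, had received 0.08 u of bleomycin, an agent that scars the lung, into the trachea, and cells were taken on day 21. The labels describe all animals as female and 11 weeks old, and all cultures as kept for 72 hours in FBM medium; strain, allele and passage are not given in the sources used here. No group without bleomycin was included, so the comparison is of 2 genotypes within injured lung. The design text speaks of independent experiments, but whether an array holds cells of 1 mouse or of pooled mice is not stated. Values are log2 signals minus the log2 of each array's 75th percentile signal, called scaled signal below. A change is the mean of the knockout arrays minus the mean of the wild-type arrays on this scale, and errors are standard deviations (SD) for groups and standard errors (SE) for changes. A gene was called past the threshold at an adjusted p under 0.05 in limma's moderated test, with p-values adjusted by Benjamini-Hochberg over the whole set of 24214 probes.

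The 75th percentile signal ranged from 138 to 328 in the knockout arrays and from 190 to 290 in the wild-type arrays, and 43.1% to 54.5% of spots were well above background. Mmp19 was above background on 0 of 3 knockout and 3 of 3 wild-type arrays. Wild-type array 2 stood somewhat apart, with a correlation over probes of 0.939 and 0.960 to its group, where the remaining pair reached 0.984. Xist, the X-inactivation RNA, was above background on 3 of 3 knockout and 0 of 3 wild-type arrays, against labels that describe every animal as female. The Y-linked Eif2s3y and Ddx3y were above background on all 6 arrays and lower in the knockout without overlap, with changes of -3.21 and -2.47 that did not pass (adjusted p 0.112 and 0.139 in limma's test). Mesothelial markers differed with genotype: 6 of 11 tested rose in the knockout, against 3.3% of all named genes, and 0 fell. Their summed scaled signal was 52.7 to 166 in knockout and 4.05 to 22.2 in wild type. Only 5 of the 11 were above background on all 6 arrays. The others entered the test through the knockout arrays alone, so the count is in part set by the filter. All 12 fibroblast markers were measured and 2 rose (Col1a1 and Col1a2), against 3.3% of all named genes. With the slide as a block, 0 fibroblast markers passed. Their median change was 1.01, with 10 changes positive and 2 negative. The summed scaled signal of the fibroblast markers was 2589 to 2692 in knockout and 1294 to 2452 in wild type. Of 12 epithelial markers 8 were tested and 0 passed, 7 of them were above background on all 6 arrays, with a summed scaled signal of 33.2 to 60.3 in knockout and 42.6 to 53.6 in wild type, and Epcam, Nkx2-1 and Cldn18 were above background on no array. The part of sex, of mesothelial cells and of the difference in fibroblast markers in the results below was not tested.

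Nuclear respiratory factor 1 (NRF-1), GA-binding protein (GABP, also called NRF-2) and YY1 are the factors best known for binding promoters of these genes. Promoter windows of 250 bases before to 50 bases after the start site were found in RefSeq (GRCm38.p6) for 56 of the 70 genes. A gene was counted where any of its windows held the letters. The NRF-1 core GCGCATGCGC, which reads the same on both strands, was present in 3 of 56 genes (5.36%: Cox6a1, Ndufa11 and Uqcrc1) and in 1.07% of all 27025 genes. The GABP core CCGGAAG, searched on both strands, was present in 11 of 56 (19.6%) against 9.93%. The YY1 core AAGATGGCG, searched on both strands, was present in 5 of 56 (8.93%: Ndufa9, Ndufc1, Ndufs4, Ndufs6 and Ndufs7) against 1.64%. Any of the 3 was found in 18 of 56 genes (32.1%) against 12.1% of all genes. The Sp1 box GGGGCGGGG was found in 12.5% against 12.9%, and TATAAA in 6 of 56 against 15.7%. These are letter matches, not sites of binding.

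The stretches shown are the bases before the start site, 5′ to 3′ on the strand of the gene, with the NRF-1 or GABP core in capitals. Ndufa11 is shown because it is the subunit gene that passed the test, Cox6a1 because it holds both cores, and 1 gene each of complexes I, II and III because they show the GABP core in either orientation. Positions are GRCm38.p6: Ndufa11 chr17:56717662-56717761 (plus strand), Cox6a1 chr5:115348959-115349128 (minus), Ndufs3 chr2:90904722-90904821 (minus), Sdhd chr9:50603850-50603949 (minus) and Uqcr11 chr10:80406822-80406921 (minus).
Ndufa11: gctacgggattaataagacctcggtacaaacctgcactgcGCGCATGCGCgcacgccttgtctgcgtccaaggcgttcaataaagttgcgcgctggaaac
Cox6a1: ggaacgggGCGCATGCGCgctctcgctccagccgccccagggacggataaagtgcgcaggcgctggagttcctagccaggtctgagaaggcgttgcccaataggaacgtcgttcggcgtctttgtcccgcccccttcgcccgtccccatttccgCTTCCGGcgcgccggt
Ndufs3: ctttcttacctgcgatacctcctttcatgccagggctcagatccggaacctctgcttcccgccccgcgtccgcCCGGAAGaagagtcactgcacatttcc
Sdhd: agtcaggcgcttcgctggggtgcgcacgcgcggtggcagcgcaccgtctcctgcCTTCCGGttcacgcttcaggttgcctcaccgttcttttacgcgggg
Uqcr11: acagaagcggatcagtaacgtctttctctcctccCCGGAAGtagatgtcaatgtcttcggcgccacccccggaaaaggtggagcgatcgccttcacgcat
In Ndufa11 the NRF-1 core lay at bases -60 to -51 from the start site, and in Cox6a1 at bases -162 to -153.

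Of the 64 subunit genes, 1 fell and 0 rose in the knockout fibroblasts. The gene that fell was Ndufa11, an accessory membrane subunit of complex I, by 1.51 on the log2 scale. Over all named genes, 4.8% were called in either direction, 3.3% higher and 1.49% lower, and 1 of 64 is not a share that stands apart from these. The split over all named genes depends on the scaling: 412 were higher and 186 lower here, and 385 and 300 with the authors' log2 values. At an unadjusted p under 0.05 there were 3 subunit genes of 64 (Ndufa11, Ndufv3 and Sdhb), against 21.8% of all named genes.

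The subunit genes differed little in either direction. Their median change was 0.07 on the log2 scale, and lay between -0.06 and 0.11 under 16 alternatives; the median over all named genes was 0.08. The change was positive for 37 and negative for 27 of them. Its size, with the sign left out, had a median of 0.21 for the subunit genes and 0.36 for all named genes, and it exceeded 0.5 in 5 of 64 (7.81%), against 36.2% of all named genes. They included Ndufa11, Ndufv3, Sdhb and Uqcrc1. The 95% confidence interval of the change lay within 1 log2 unit of 0, a factor of 2 either way, for 50 of 64 subunit genes, against 46.2% of all named genes and 49.8% of those above background on all 6 arrays. For the other 14, Ndufa11 among them, the interval reached beyond 1 log2 unit. Subunit genes also varied less among arrays of a group, with a median SD of 0.20 against 0.33, and gave bright signals, with array medians of 5.15 to 5.34 against 1.26 to 1.67 for all named genes. Small changes were not particular to the subunit genes. The median size was 0.18 for mitochondrial ribosomal protein genes, 0.22 for ATP synthase genes and 0.19 for tricarboxylic acid cycle enzymes. It exceeded 0.5 in 9.09%, 10.5% and 23.1% of these, and their median SD was 0.19, 0.19 and 0.25.

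**Figure D1:**
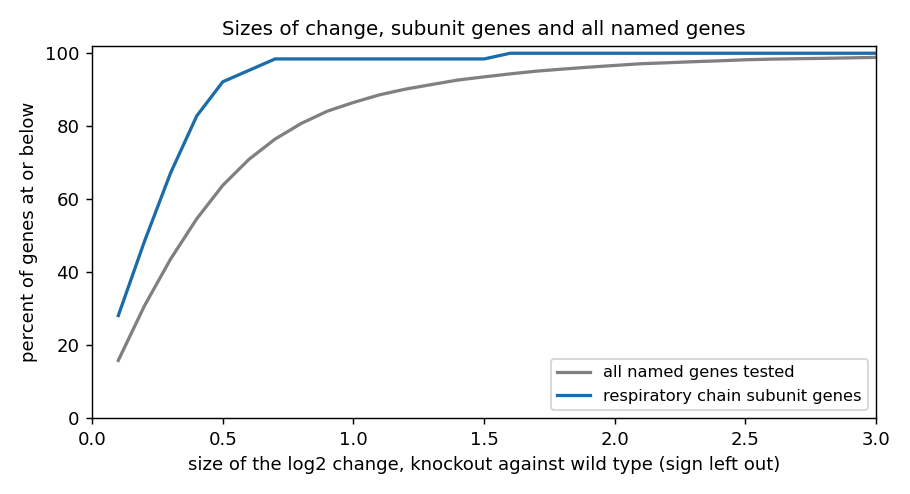
Cumulative percent of genes (vertical axis) whose log2 change, with its sign left out, is at or below the size on the horizontal axis, for the 64 subunit genes (blue) and the 12470 named genes tested (grey). The blue line lies above the grey one throughout, with 7.81% of subunit genes and 36.2% of all named genes beyond a size of 0.5.

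Taken by complex, the median change was 0.08 in complex I, 0.28 in complex II, -0.01 in complex III and -0.02 in complex IV. For complex II it was 0.09 with normexp background correction, and with the authors' log2 values it was 0.15 there and -0.14 in complex IV. Arrays of the same replicate number shared a slide, 1 of each genotype, and the median change of the subunit genes within the slides was 0.11, 0.14 and -0.02. The groups did not overlap for 15 of 64 subunit genes, 10 higher and 5 lower in the knockout, against 31.0% of all named genes, 21.2% higher and 9.79% lower. Knockout array 2 held the highest value of the 6 arrays for 24 of the 64 genes, and wild-type array 2 held the lowest for 18 and the highest for 15.

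**Figure D2:**
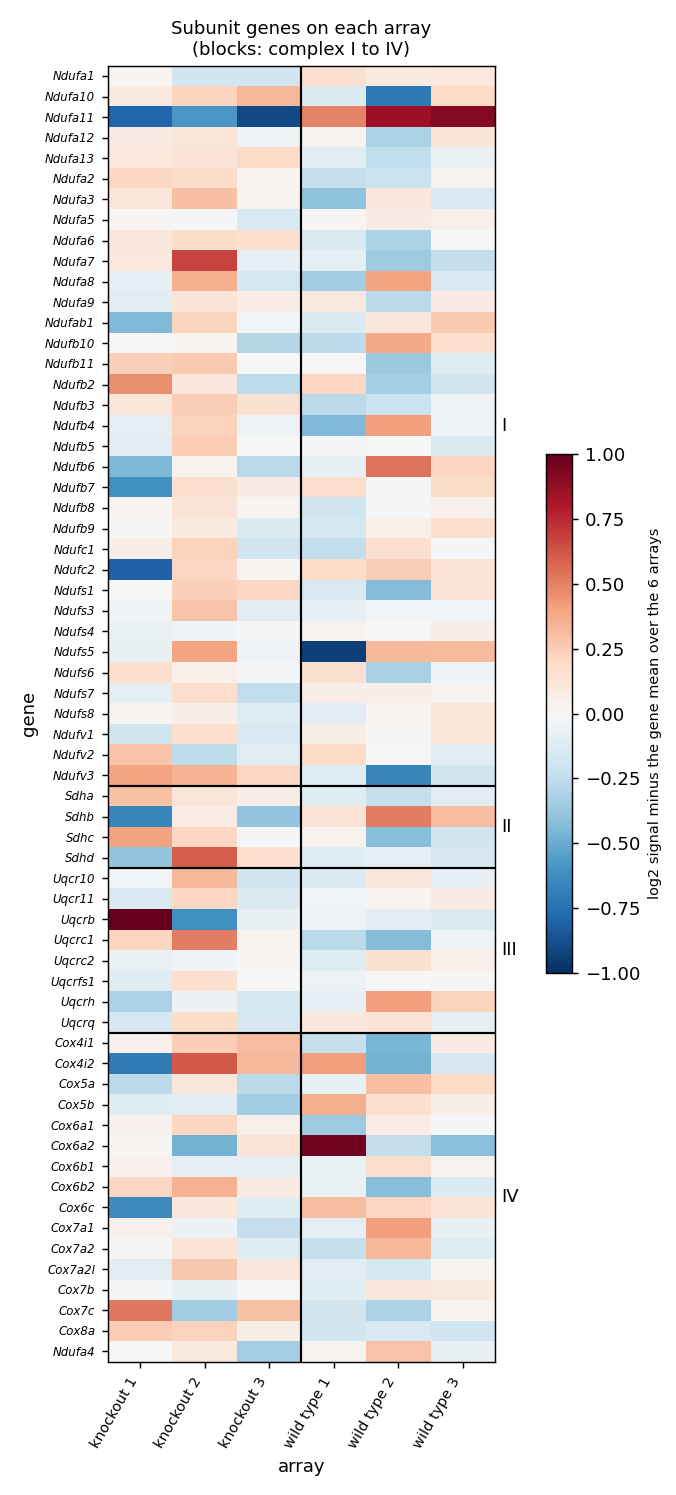
Scaled log2 signal of 63 of the 64 subunit genes (rows, in blocks by complex) on each of the 6 arrays (columns), minus the gene's mean over the 6 arrays, with red above and blue below that mean. Ndufa11 is blue on all 3 knockout arrays and red on all 3 wild-type arrays, while most other rows are pale.

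Complex I has a core of subunits that carry electrons from NADH through flavin and iron-sulfur clusters to ubiquinone, surrounded by accessory subunits that stabilise it. Ndufa11, an accessory subunit of the membrane arm at the contact with complex III in the supercomplex, had scaled signals of 1.67, 1.89 and 1.57 on the knockout arrays and 2.96, 3.32 and 3.38 on the wild-type arrays. All 3 knockout arrays lay below all 3 wild-type arrays, and the gap between the groups was wider than the spread within either. The mean was 1.71 ± 0.16 (SD, n = 3) over the knockout arrays and 3.22 ± 0.23 (SD, n = 3) over the wild-type arrays. The change was -1.51 ± 0.21 (SE), with a 95% interval that reached down to -2.02 and stayed below 0, and an adjusted p of 0.018 in limma's test. Within the 3 slides it was -1.29, -1.44 and -1.82. Blocking on the slide gave an adjusted p of 0.059, so the call was not kept there, where 1.8% of all named genes were called. An exact two-sided permutation test of the 6 values gave p = 0.1, the smallest that 3 arrays against 3 can give. The call was also lost without knockout array 1 (adjusted p 0.052), knockout array 3 (0.108) or wild-type array 3 (0.093) and with no filter on dim probes (0.118), while the change stayed between -1.67 and -1.43 under all 16 alternatives. Ndufa11 was measured by a single probe. In these bulk cultures, fewer cells of a type and less RNA per cell cannot be told apart.

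Ndufv3, a small flavoprotein subunit of the NADH-oxidising module, had the largest positive change in complex I. Its signals were 7.46, 7.41 and 7.27 in knockout and 6.94, 6.41 and 6.88 in wild type. The groups did not overlap, and wild-type array 2 was the lowest of the 6. The change of 0.64 ± 0.22 (SE) did not pass in limma's test (adjusted p 0.165). A second Ndufv3 probe, with signals of 1.87, 1.90 and 2.19 in knockout and 1.05, 0.32 and 1.14 in wild type, gave 1.15 ± 0.28 (SE) and an adjusted p of 0.070. Both probes were thus higher in the knockout without passing.

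None of the core subunits passed, and the changes of those given here ran from -0.13 to 0.29. Ndufs1, the largest iron-sulfur subunit, had signals of 4.79, 5.04 and 5.01 in knockout and 4.65, 4.37 and 4.95 in wild type, with 1 knockout array inside the wild-type range. Ndufv1, which binds the flavin and NADH, had 5.36, 5.71 and 5.40 in knockout and 5.62, 5.57 and 5.68 in wild type. Its partner Ndufv2 had 5.61, 5.08 and 5.22 in knockout and 5.53, 5.33 and 5.23 in wild type, and in both the groups overlapped. A further 3 core subunits belong to the module that passes electrons on to ubiquinone, and Ndufs7 and Ndufs8 carry its iron-sulfur clusters. Ndufs3 had 5.17, 5.49 and 5.10 in knockout and 5.13, 5.18 and 5.18 in wild type. Ndufs7 had 4.88, 5.14 and 4.73 in knockout and 5.04, 5.04 and 5.00 in wild type. Ndufs8 had 2.36, 2.38 and 2.21 in knockout and 2.22, 2.35 and 2.45 in wild type. In each of these 3 the wild-type values lay within or across the knockout range, and the changes were 0.09, -0.11 and -0.02.

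The 29 accessory subunits of complex I had a median change of 0.10. Groups did not overlap for 8 of the 29, a share near the 31.0% of all named genes. Beside Ndufa11 and Ndufv3, Ndufa6, Ndufa7, Ndufa13, Ndufb3 and Ndufb11 were higher in the knockout and Ndufa1 was lower. The changes of these 6, without Ndufa11 and Ndufv3, ran from -0.24 to 0.46. Ndufa13, also known as GRIM-19, had 8.36, 8.39 and 8.45 in knockout and 8.16, 8.02 and 8.20 in wild type, a change of 0.28 ± 0.18 (SE). Ndufb6, a membrane-arm subunit, had the next most negative change after Ndufa11, -0.46 ± 0.25 (SE), with overlapping groups. Some genes turned on 1 array. Ndufs5, an accessory subunit on the intermembrane side, had 5.51, 5.98 and 5.55 in knockout and 4.65, 5.91 and 5.90 in wild type, so that wild-type array 1 alone lay below the rest. Ndufc2 had 4.03 on knockout array 1 and between 4.86 and 5.09 on the other 5. The X-linked accessory subunits Ndufa1 and Ndufb11 had changes of -0.24 ± 0.18 and 0.33 ± 0.20 (SE), in opposite directions, beside the difference in Xist.

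Complex II consists entirely of nuclear-encoded subunits and is also an enzyme of the tricarboxylic acid cycle. The 4 genes did not move together, and none passed. Sdha, the flavoprotein that oxidises succinate, had signals of 5.31, 5.13 and 5.07 in knockout and 4.89, 4.78 and 4.90 in wild type, with no overlap and a change of 0.31 ± 0.19 (SE). Sdhb, the iron-sulfur subunit bound to it, had 5.46, 6.18 and 5.72 in knockout and 6.25, 6.62 and 6.42 in wild type. Here the knockout arrays lay below the wild-type arrays without overlap, and the change was -0.65 ± 0.25 (SE) with an adjusted p of 0.204 in limma's test and a 95% interval of -1.25 to -0.05. A second Sdhb probe gave -0.40 ± 0.23 (SE). Sdhb passed under 1 alternative, array weights, with an adjusted p of 0.038 in limma's test. That alternative called many more genes: 1469 named genes higher and 1242 lower, against 412 and 186 without the weights. Sdhc, a membrane anchor, had 4.55, 4.36 and 4.13 in knockout and 4.19, 3.72 and 3.96 in wild type. Its groups overlapped by 1 array, the change was 0.39 ± 0.22 (SE), and a second probe gave 0.70 ± 0.25 (SE) with an adjusted p of 0.169. Sdhd, the other anchor, had 4.05, 5.06 and 4.62 in knockout against 4.33, 4.35 and 4.29 in wild type. The knockout arrays lay on both sides of the narrow wild-type range.

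**Figure D3:**
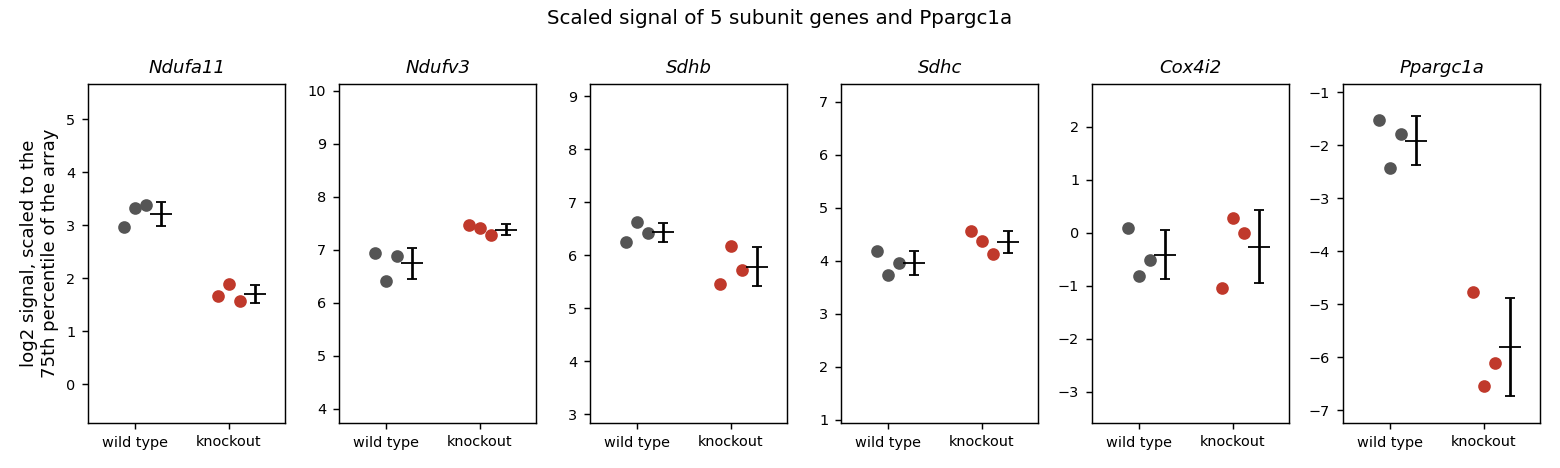
Scaled log2 signal (vertical axis, each panel spanning the same number of log2 units) on each of the 3 wild-type (grey) and 3 knockout (red) arrays for 5 subunit genes and Ppargc1a; the bar beside each group is the mean ± SD. Ndufa11 and Ppargc1a are lower on all knockout arrays, Sdhb is lower and Ndufv3 higher with narrower gaps, and the groups overlap for Sdhc and Cox4i2.

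In complex III the core proteins Uqcrc1 and Uqcrc2 face the matrix, and Uqcrfs1 is the Rieske iron-sulfur protein. Uqcrc1 had signals of 3.41, 3.70 and 3.22 in knockout and 2.92, 2.76 and 3.14 in wild type, without overlap. Its change of 0.51 ± 0.22 (SE) was the largest of the complex and did not pass in limma's test (adjusted p 0.253). Uqcrc2 had 4.85, 4.88 and 4.94 in knockout and 4.80, 5.07 and 4.97 in wild type, and Uqcrfs1 had 4.67, 4.96 and 4.78 against 4.74, 4.79 and 4.80. Both overlapped, with changes of -0.05 and 0.03. Uqcrh, the hinge protein at the cytochrome c side, had the most negative change of the complex: 7.05, 7.31 and 7.19 in knockout and 7.28, 7.77 and 7.59 in wild type, or -0.37 ± 0.22 (SE). The knockout arrays were lower within each slide, but 1 exceeded the lowest wild-type array. Uqcrb, a ubiquinone-binding subunit, gave no single direction. Its brightest probe had 6.51 on knockout array 1, against 4.91 and 5.45 on the other knockout arrays and 5.47, 5.41 and 5.38 in wild type. The 3 probes of Uqcrb gave changes of 0.21, 0.74 and -0.30.

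**Figure D4:**
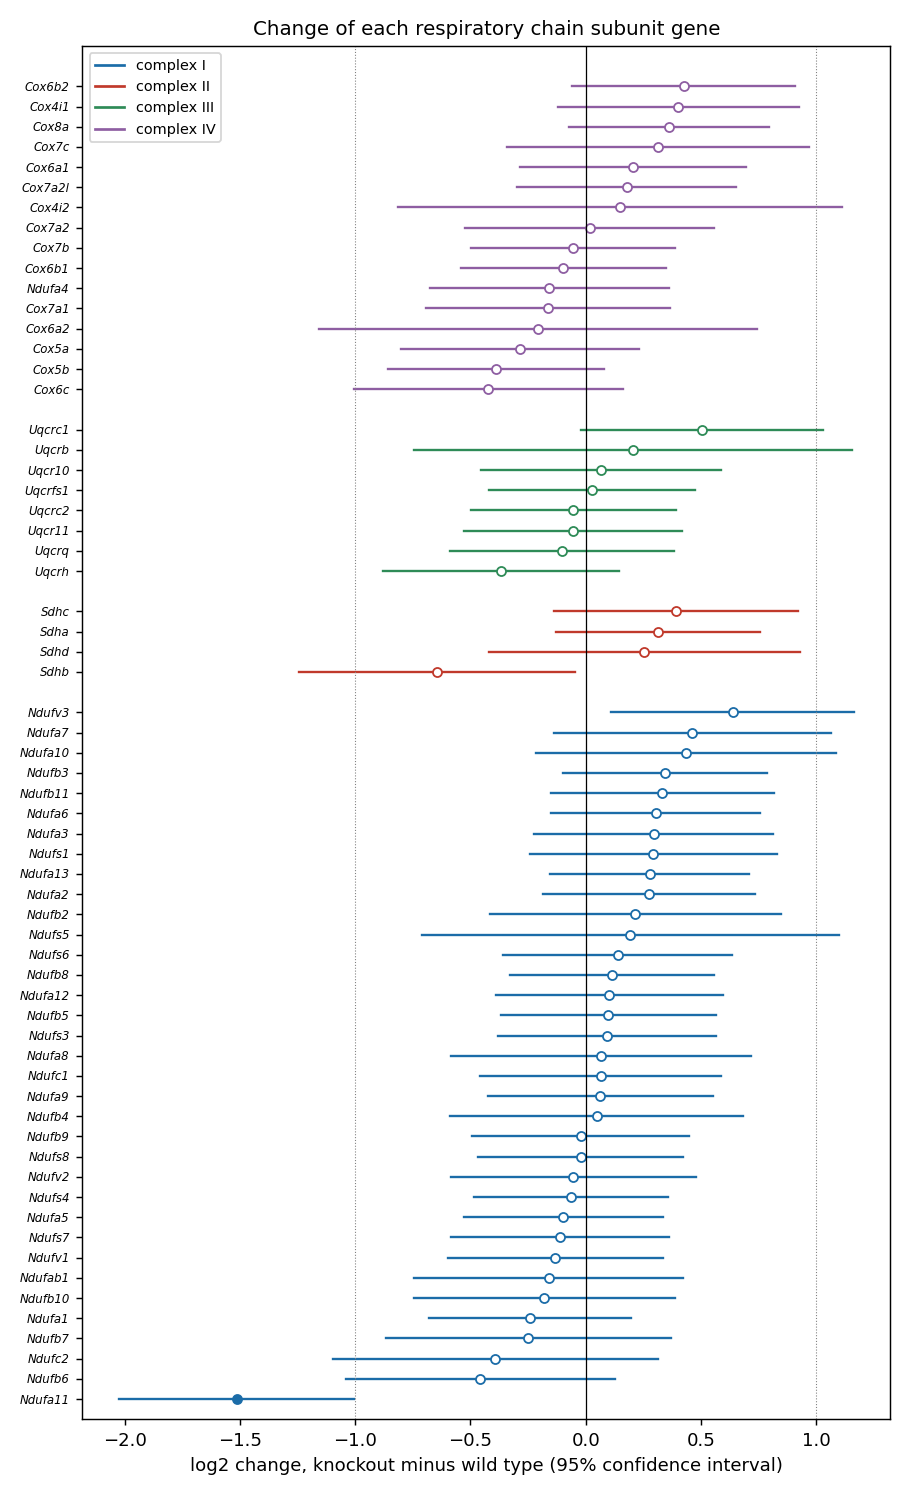
Log2 change, knockout minus wild type, of 63 of the 64 subunit genes (circles), coloured by complex, with its 95% confidence interval (lines); a filled circle marks an adjusted p under 0.05 and dotted lines mark 1 log2 unit. Ndufa11 is the single filled circle, and the intervals of 50 genes stay between the dotted lines.

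Complex IV holds the subunits with paired forms, and none of its 16 tested genes passed. Their changes ran from -0.42 to 0.42. Cox4i1, the general form of a regulatory subunit, had signals of 7.32, 7.52 and 7.58 in knockout and 7.04, 6.81 and 7.35 in wild type. Cox4i2, the form known from lung and linked to low oxygen, had -1.05, 0.27 and -0.01 in knockout and 0.08, -0.81 and -0.51 in wild type. For Cox4i1 a single pair of arrays overlapped and the change was 0.40 ± 0.22 (SE), and for Cox4i2 the arrays of both groups were interleaved, 0.15 ± 0.41 (SE). Within the slides the change of Cox4i2 was -1.13, 1.09 and 0.50, so its sign differed between slides. Of the genes induced by low oxygen, 12 were tested, with a median change of -0.71, 1.33 and 0.12 within the slides, beside -1.76, 1.47 and -0.83 for proliferation genes. Of these 12 genes 0 passed or had an unadjusted p under 0.05 in limma's test. Those with the smallest p were Adm, the vasodilator peptide adrenomedullin, with a change of 1.24 ± 0.53 (SE, adjusted p 0.244), and Ndufa4l2, a relative of Ndufa4, with 1.72 ± 0.97 (SE, 0.357). The part of oxygen supply or proliferation in the values of Cox4i2 was not tested.

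Cox6a1, the liver-type form of subunit VIa, had 9.18, 9.35 and 9.19 in knockout and 8.78, 9.21 and 9.12 in wild type. Cox6a2, the heart and skeletal muscle form, had -1.58, -2.07 and -1.46 in knockout and -0.63, -1.84 and -2.01 in wild type, with wild-type array 1 above the rest. Without that array its change of -0.21 ± 0.40 (SE) became 0.22. Cox7a1, the muscle form of subunit VIIa, had 1.07, 0.97 and 0.80 in knockout and 0.94, 1.43 and 0.95 in wild type. Its general counterpart Cox7a2 had 4.14, 4.26 and 4.01 against 3.90, 4.46 and 4.01. Neither form of either pair passed, and the groups of all 4 genes overlapped. Cox8b, the muscle form of subunit VIII, was above background on no array. Of 14 heart and skeletal muscle markers 8 were tested, 6 of them above background on all 6 arrays. Actn2, Ckm, Ckmt2 and Ryr2 were above background on no array. Of the 8, 1 rose (Tnni3, 1.01 ± 0.21 SE, adjusted p 0.047 in limma's test, not kept with the slide as a block) and 0 fell. Over all named genes 3.3% rose and 1.49% fell. The summed scaled signal of the 14 markers was 13.4 to 20.4 in knockout and 5.80 to 13.5 in wild type, and its part in the muscle forms was not tested.

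Cox6b1, the general form of subunit VIb near the cytochrome c site, had 1.67, 1.54 and 1.54 in knockout and 1.56, 1.81 and 1.67 in wild type, with overlapping groups. Cox6b2, the testis form, had -0.29, -0.15 and -0.41 in knockout and -0.57, -0.93 and -0.64 in wild type. All knockout arrays lay above all wild-type arrays, with the largest positive change of the complex, 0.42 ± 0.20 (SE) and an adjusted p of 0.287 in limma's test. The testis forms Cox7b2 and Cox8c were above background on no array. Of 10 germ cell markers 2 were tested, and 1 of these was above background on all 6 arrays. Ddx4 rose, where 3.3% of all named genes did. It entered the test through the knockout arrays alone, and its call uses wild-type signals below background. Prm1 had a change of -0.77 ± 0.26 (SE) that did not pass (adjusted p 0.154 in limma's test). The summed scaled signal of the 10 germ cell markers was 2.79 to 4.69 in knockout and 0.94 to 1.14 in wild type. Cyct, Dazl and Tnp2 were above background on no array, and the part of germ cell genes in Cox6b2 was not tested. Cox7b, X-linked and general, had 5.01, 4.95 and 5.03 in knockout and 4.91, 5.14 and 5.12 in wild type, a change of -0.05 ± 0.19 (SE).

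Cox8a, the general form of subunit VIII, had 8.17, 8.15 and 7.98 in knockout and 7.73, 7.77 and 7.73 in wild type. The groups did not overlap, the change was 0.36 ± 0.18 (SE) with an adjusted p of 0.309 in limma's test, and a second probe gave 0.76. Cox6c, a small membrane subunit, had the most negative change of the complex, with 6.04, 6.79 and 6.55 in knockout and 6.97, 6.88 and 6.81 in wild type. Its groups did not overlap either, but the gap was 0.09 within slide 2 and 0.93 within slide 1, and the change was -0.42 ± 0.25 (SE). Cox5b, a zinc-binding matrix subunit, was also lower without overlap, with a change of -0.39 ± 0.20 (SE). Cox7a2l, a factor that joins complexes III and IV, had 3 probes with changes of 0.18, 0.31 and 0.80, and on the probe with 0.80, wild-type array 2 had 5.06 against 6.89 to 7.13 on the other arrays.

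In 14 of the 64 genes several probes were tested. Their changes spanned a median of 0.28 within a gene and at most 1.04, in Uqcrb, and they differed in sign in 4 genes: Cox7c, Uqcr10, Uqcrb and Uqcrq.

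The rest of the oxidative machinery was examined by lists. The 13 subunits encoded by mitochondrial DNA had no matched probe and were not analysed here. Of the 19 ATP synthase genes tested, 0 passed in limma's test, and the median change was 0.02. An unadjusted p under 0.05 was found for 2 of them, against 21.8% of all named genes. Atp5e, the epsilon subunit of its central stalk, had 7.07, 7.07 and 7.06 in knockout and between 6.48 and 6.64 on all wild-type arrays, a change of 0.53 ± 0.18 (SE, adjusted p 0.158). Dmac2l, a factor of this enzyme, had 0.58 ± 0.21 (SE, 0.183). Cycs, the soluble carrier cytochrome c, had 5.80, 5.98 and 5.87 in knockout and 6.26, 6.51 and 6.44 in wild type. All its knockout arrays were lower, and the change of -0.52 ± 0.19 (SE) did not pass (adjusted p 0.182 in limma's test). Cyc1, the cytochrome c1 of complex III, had a change of -0.24.

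Assembly factors help to build the complexes without remaining in them. Of the 41 tested, 1 rose and 0 fell, where 3.3% and 1.49% of all named genes did, 9 had an unadjusted p under 0.05, where 21.8% of all named genes did, and the median change was 0.22, against 0.08 for all named genes. The gene that rose was Ndufaf3, a complex I assembly factor, with 1.63, 1.85 and 1.74 in knockout and 0.55, 0.29 and 0.83 in wild type. The groups were well separated, and the change was 1.18 ± 0.22 (SE) with an adjusted p of 0.035 in limma's test. Blocking on the slide gave 0.090, and it passed in 9 of 16 alternatives. Leaving out any 1 array other than wild-type array 2 ended the call, with adjusted p from 0.078 to 0.164.

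Of 77 mitochondrial ribosomal protein genes tested, which serve the synthesis of the subunits encoded by mitochondrial DNA, 1 fell and 0 rose, against 1.49% and 3.3% of all named genes, 5 had an unadjusted p under 0.05, against 21.8%, and the median change was 0.03. Mrps12, a protein of the small ribosomal subunit, had 2.84, 2.96 and 2.79 in knockout and 4.30, 4.41 and 4.42 in wild type. The groups were far apart relative to their spread, and the change was -1.51 ± 0.18 (SE), with an adjusted p of 0.012 in limma's test and 0.0496 with the slide as a block. The call was lost without knockout array 3 (0.087), without wild-type array 3 (0.072) and with no filter on dim probes (0.093).

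Among 18 tested regulators of mitochondrial biogenesis, 1 fell and 0 rose (all named genes, 1.49% and 3.3%), 3 had an unadjusted p under 0.05 (21.8%), and the median change was 0.02. Ppargc1a encodes PGC-1alpha, a coactivator that works through NRF-1, GABP and oestrogen-related receptors. Its scaled signal was -1.53, -2.42 and -1.79 on the wild-type arrays, all above background, and -4.77, -6.54 and -6.11 on the knockout arrays, none above background. With the knockout signals set to a floor, the dimmest signals well above background, it was 3.51-fold lower in the knockout. That fold depends on the floor and is not a strict minimum. The adjusted p was 0.013 in limma's test and 0.027 with the slide as a block, but the gene entered the test through the wild-type arrays alone, and these p-values use knockout signals below background. It passed in 11 of 15 alternatives, and with normexp background correction the change was -0.98 with an adjusted p of 0.120. The call was also lost with no filter on dim probes (0.050) and without knockout array 3 (0.079) or wild-type array 3 (0.070). A second Ppargc1a probe was above background on no array. Other factors of this group did not pass. Nrf1 had a change of -0.14 ± 0.27, Gabpa 0.37 ± 0.20, Yy1 -0.52 ± 0.21, Esrra 0.06 ± 0.24 and Tfam, the mitochondrial transcription factor, -0.02 ± 0.30 (SE). Ppargc1b was above background on no array.

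Other mitochondrial proteins showed no gene past the threshold. Of 13 tricarboxylic acid cycle enzymes, 0 passed in limma's test, and the median change was 0.15. An unadjusted p under 0.05 was found for 3 of the 13, a share near the 21.8% of all named genes. Idh3b, a subunit of isocitrate dehydrogenase, had the smallest p, with a change of 0.81 ± 0.25 (SE, adjusted p 0.131), followed by Dld, the lipoamide dehydrogenase shared by several complexes, with 0.50 ± 0.20 (SE, 0.222). A further list of 14 genes held mitochondrial membrane, import and chaperone proteins and Prdx3. Of these 14, 0 passed, 1 had an unadjusted p under 0.05 (21.8% of all named genes), and the median change was 0.11. Hspe1, the mitochondrial chaperonin partner, had -0.50 ± 0.18 (SE, adjusted p 0.175), and Tomm22, an import receptor, had 0.44 ± 0.19 (SE, 0.239). The 13 proliferation genes tested, of which 0 passed or had an unadjusted p under 0.05, had median changes of -1.76, 1.47 and -0.83 within slides 1, 2 and 3, where the medians of the subunit genes were 0.11, 0.14 and -0.02.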

How the data were processed

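RNA from 6 fibroblast cultures was hybridised to 1-colour Agilent arrays; Cy3 intensity per spot was deposited as scanner output, quantified with Agilent Feature Extraction (version 10.7.3.1 per the file headers, 9.1 per the submitters' processing notes). The processed intensity was used, already background-corrected per the file headers. The deposited value table holds the authors' log2 values (35844 probes); how they were normalized is not stated in any source used. They correlate at 0.996 or more with the same array's log2 intensity, array medians are 5.51 to 5.76, and the exact scaling stays unknown.

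Of 59305 non-control spots, outlier-flagged spots were left out and the rest averaged to 55681 probes, of which 26413 (47.4%) matched a gene by RefSeq accession; the deposited files name no genes. Log2 intensity was scaled to each array's 75th percentile. A probe was tested if every array of the knockout or of the wild-type group showed it above background. The fit used limma 3.58.1 (R 4.3.3) with genotype as the sole term, and the brightest tested probe stood for a gene. Alternatives were normexp background correction, which models signal plus noise, quantile and median scaling, a stricter or no filter on dim probes, another variance prior, the authors' log2 values, array weights, the slide as a block, the mean of a gene's probes, and leaving out each array. The fold given for Ppargc1a uses as its floor, per array, the lowest signal among probes well above background. The test was checked on simulated data with 50 probes changed at each of 4 sizes among 24214. It called 4% of changes of 1 log2 unit, 58% of 2, 66% of 3 and 82% of 4. Failing to pass therefore does not by itself exclude a change by a factor of 2. For 50 of 64 subunit genes, however, the 95% interval lay within 1 log2 unit of 0, a factor of 2 either way. The subunit genes also varied less within groups than all named genes, so the simulated shares need not hold for them.

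Values on every array are given for genes past the threshold, tissue forms of complex IV with their general partners, complex II, the cores of complexes I and III, and each complex's largest positive and negative change; from each pathway list, genes past the threshold or, where none passed, up to 2 with the smallest p. Cell type markers are given by counts, and those named were chosen after their values were seen. Ndufa13, Ndufb6, Ndufs5, Ndufc2, Cox5b, Cox7a2l, Uqcrb and the regulators other than Ppargc1a, and genes named for overlap, probe agreement or the size of their change, were named after their values were seen. The values of 1 subunit gene are not reported here, though it is included in all counts and medians. The subunit genes and all lists were chosen with earlier results of these data known. Arrays with the same replicate number share a slide and scan; after subtracting group means, the arrays of a slide correlated at 0.10, -0.02 and 0.21. The numbers were therefore not taken to pair cultures, and the slide was fitted as a block as an alternative. Replicates may be separate experiments; p-values measure the spread between these arrays, and the number of arrays limits the precision.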

Additional observations from a re-analysis of the deposited data

How the results depend on the processing

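The median change of the subunit genes stayed between -0.06 and 0.11 over 16 alternatives, and between -0.09 and 0.06 relative to all named genes. With the authors' log2 values the median of all named genes shifted by -0.13. The number of subunit genes past the threshold, 1 as reported, was 0 with no filter on dim probes, 2 with array weights (Sdhb and Ndufa11) and 0 to 1 when single arrays were left out (0 without knockout array 1 or 3 or wild-type array 3). Over all probes, 1124 as reported, it was 633 with normexp background correction, 650 with only probes above background on all 6 arrays, 113 with no filter, 5069 with array weights, and 107 to 1716 when single arrays were left out (1716 without wild-type array 2). With the slide (replicate number) as a block, 0 subunit genes and 385 probes passed; the cause was not tested. Signs reversed with a shift beyond the SE for Sdhd with normexp (-0.033) and for Cox6a2 when single arrays were left out (-0.47 to 0.22). Neither was past the threshold, and the cause was not tested. Sign changes with a smaller shift, possible for genes with changes near 0, were not counted as reversals. Of the values for single genes and complexes under the alternatives, 646 were counted as unchanged and 19 lost a call. A further 1 gained a call, and 3 medians of a complex moved beyond their spread. Unchanged genes stayed on their side of the threshold and kept their direction or, where not called, shifted by less than their SE. Unchanged medians of a complex stayed within their spread, whatever their sign. With 3 arrays per group the intervals of 14 subunit genes reached beyond 1 log2 unit.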
